A study of Mus musculus with 6 samples.

Results

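The Kit, PI3K and mTOR pathway was examined as 9 genes, chosen by name from the gene symbols of the count table: Kit, Foxo3, Pik3ca, Pdpk1, Akt1, Tsc1, Tsc2, Rptor and Mtor. All 9 were among the 25239 genes of the table. RNA was measured in 6 single-oocyte libraries from mice, collected at the germinal vesicle stage, in which the nucleus is intact and meiosis is still arrested. The mice were CD-1 females aged 4 to 6 weeks, with no other allele named. Oocytes within their cumulus cells were microinjected with water (3 libraries) or with a mixture of phthalate metabolites (3 libraries), and both groups were then cultured in maturation medium that held serum, follicle-stimulating hormone and pyruvate. The members of the mixture and their dose are not given in the sources used here. The comparison asks how the transcripts of the oocyte differ after the mixture, whose parent compounds are plasticizers.

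The receptor tyrosine kinase Kit sits on the oocyte surface and binds Kit ligand made by the surrounding granulosa cells. It activates phosphatidylinositol 3-kinase (PI3K), whose lipid product recruits the kinases Pdpk1 and Akt to the membrane. Akt drives the transcription factor Foxo3 out of the nucleus and inhibits the Tsc1-Tsc2 complex, which otherwise restrains the kinase mTOR. In the ovary this pathway is known for controlling when dormant primordial follicles begin to grow, with Foxo3 and the Tsc complex keeping them dormant, and later for supporting growth and translation in the oocyte.

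Total gene counts per library were 252267 to 300917. Each library is titled as 1 oocyte, of an animal and culture that are not named. Each group was therefore taken as 1 sample, and differences have no test against the spread between animals. The intervals below cover counting error only. Phthalate library 3 stood furthest from its group, with a chi-square per degree of freedom over genes of 2.31 and 1.87 against the other phthalate libraries, beside 1.38 between those and 1.17 to 1.45 among the water libraries. Its TMM factor of 0.935 was also the lowest. Ratios without it are given below for Akt1, Akt2, Foxo1, Foxo3, Tsc2, Rictor, Prkaa1 and Shc1. Without this library the log2 ratio of phthalate over water was -0.80 for Kit, -1.04 for Pik3ca and 0.30 for Pdpk1. It was -0.34 for Tsc1, 1.20 for Rptor and -0.047 for Mtor. For the other genes named below no ratio without this library is given. Of 10 oocyte markers all 10 had counts, from 5803 to 7471 in sum per library. Of 20 cumulus and granulosa markers 10 were at 0 in every library, and the sum was 2 to 11 counts per water library and 2 to 11 per phthalate library. Kitl, which encodes Kit ligand and was one of those markers, had 2 counts in water library 3 and 0 in the other 5 libraries.

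The libraries were primed with oligo(dT), so a transcript entered them through its poly(A) tail. In oocytes the length of that tail is set in part by sequences near the 3′ end: the poly(A) signal, and the cytoplasmic polyadenylation element that marks many stored messages for later tail extension. The 3′ ends of the longest protein-coding transcript of each gene in GENCODE M21 (GRCm38) were therefore searched on the transcript strand for AATAAA or ATTAAA in the last 40 nucleotides and for TTTTAT or TTTTAAT in the last 100. The second element can overlap the poly(A) signal, as the 2 may share their AAT. The sites of the 9 genes are shown 5′ to 3′ in windows of 30 bases, with the last poly(A) signal in capitals. The window of Rptor holds an earlier AATAAA, left in lower case.
Kit: ctgaagaattctAATAAAaatgtaaatata
Foxo3: atgacgcatgtaAATAAAgctttggtgaca
Pik3ca: ttgtcatttggtcttagctgAATAAAatct
Pdpk1: cggtagtcttgtAATAAAagcatgtagagt
Akt1: ccctccaaattcAATAAAaattgcttttca
Tsc1: taactgtgaacaAATAAAgatttattgttt
Tsc2: ggagggggggcgAATAAAttagcatcttgg
Rptor: acagagtgttaataaagAATAAAgccgtga
Mtor: aaattttgtgccAATAAAtgacatcagaat

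All 9 genes carried AATAAA in that window, beginning 10 (Pik3ca) to 28 (Mtor) nucleotides before the annotated end. Either signal was present in 77.7% of the 4316 genes that passed the filter on low counts (edgeR's filterByExpr, which asks here for about 10 counts in at least 3 libraries) and have a 3′ untranslated region of at least 100 nucleotides, and AATAAA was the last signal in 61.4%. None of the 9 had TTTTAT or TTTTAAT in the last 100 nucleotides, where 21.1% of the 4316 genes did. No match says only that these letters are not in this window of the annotated transcript. Over the genes that passed the filter, the median log2 ratio of phthalate over water was 0.014 for the 911 with the element and 0.0026 for the 3405 without it.

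Levels of different genes were compared as TPM, which divides each count by the length of the longest protein-coding transcript and scales each library to 1000000. Foxo3 and Kit had the highest mean TPM of the 9 over the 6 libraries, 72.6 ± 31.5 and 69.6 ± 27.3 (SD over 6 libraries), placing them above 83.2% and 82.7% of the detected genes. Foxo3 was above Kit in 3 of 6 libraries, so their order is not set by these data. Pdpk1 followed at 28.7 ± 6.09 TPM, below Kit in all 6 libraries. Akt1 (22.4 ± 15.5), Tsc1 (17.96 ± 4.64) and Mtor (15.3 ± 4.27) came next, and from Pdpk1 to Mtor each gene overlapped in range with the next. Pik3ca (4.54 ± 2.54), Tsc2 (4.13 ± 2.43) and Rptor (1.97 ± 1.82) were the lowest. Mtor was above Pik3ca in all 6 libraries, while Pik3ca and Tsc2, and Tsc2 and Rptor, overlapped. The gene for the secreted factor Gdf9, for scale, had 10899 TPM. With the median transcript length in place of the longest, Pdpk1 stood at 80.3 TPM, above Kit at 47.1.

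**Figure D1:**
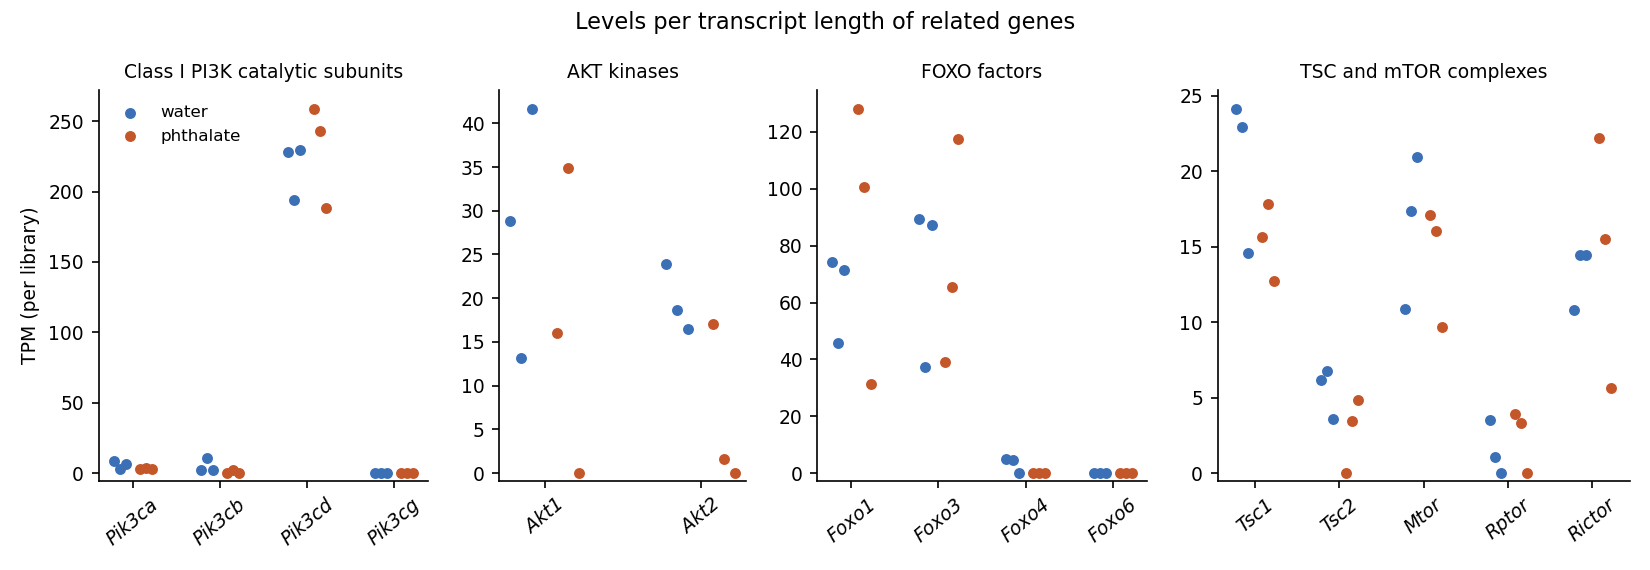
TPM (vertical axes, linear, each panel with its own scale) of related genes in the 3 water libraries (blue) and the 3 phthalate libraries (orange), 1 point per library. Pik3cd stands at 188 to 259 TPM in every library while the other catalytic subunits lie at 10.9 or below, and Foxo1 and Foxo3 spread over similar ranges.

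Kit, the receptor (GRCm38 chr5:75574916-75656722, plus strand), was lower in the summed phthalate libraries than in the summed water libraries. In libraries 1, 2 and 3 of each group, in that order as everywhere below, it had 48, 45 and 86 counts with water and 34, 33 and 43 with phthalate. In CPM (counts per 1000000 of the counts in a library) these were 178, 150 and 303 against 135, 112 and 156. The groups overlapped, since phthalate library 3 lay above water library 2, and water library 3 was the highest of all. Summed over the 3 libraries of a group, Kit had 210 CPM in the water group (95% exact Poisson interval 180 to 243) and 134 CPM in the phthalate group (110 to 161). The log2 ratio of phthalate over water was -0.63 (95% exact interval -0.99 to -0.28), which is 1.55 times lower in the phthalate group. Without water library 3 the log2 ratio was -0.26 and without phthalate library 2 it was -0.47, both no longer past 1.5-fold. Within the water group alone the highest Kit value was 2.03 times the lowest. That compares single libraries, while the 1.55 is a ratio of sums over 3 libraries, so the sizes cannot be set against each other directly.

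Among 2782 other genes averaging 20 counts or more and detected in every library, those whose log2 CPM followed Kit most closely over the 6 libraries were Eps15l1, Ythdf3 and Sec11c. They encode an endocytic adapter, a reader of the m6A mark on RNA and a signal peptidase subunit. Their root-mean-square differences from Kit, after centring each gene on its mean, were 0.139, 0.150 and 0.176, against a median of 0.548 over all genes. Eps15l1 had 130, 130 and 226 CPM in the water libraries against 123, 78.0 and 127 in the phthalate libraries. These are the closest of many genes over only 6 libraries, and water library 3 was highest for all 3, as for Kit.

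Of the other receptors that feed PI3K, only Igf1r and Insr were examined, and both were lower than Kit per length. Igf1r, the receptor of insulin-like growth factor, had a mean of 6.06 TPM and Insr, the insulin receptor, 1.30 TPM. Kit was above both in all 6 libraries.

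Pik3ca (chr3:32397671-32468486, plus strand) encodes the alpha catalytic subunit of class I PI3K, the kinase that makes the lipid signal. It had 10, 4 and 8 counts in the water libraries against 3, 4 and 3 in the phthalate libraries, or 37.1, 13.3 and 28.2 against 11.9, 13.6 and 10.9 CPM. Water libraries 1 and 3 were above every phthalate library, and water library 2 was within their range. The sums of 22 and 10 counts gave a log2 ratio of -1.07 (-2.31 to 0.073), an interval that included 0.

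Most class I catalytic transcripts came from another gene. Pik3cd, which encodes the delta subunit best known from white blood cells, had 145, 135 and 151 counts in the water libraries against 148, 166 and 123 in the phthalate libraries. Per length it made up 93.2% to 98.9% of the 4 catalytic subunits in each library, and its summed TPM was 49.3 times that of Pik3ca. On coding length alone that ratio was 27.8. Pik3cb had 2, 10 and 2 counts in the water libraries against 0, 2 and 0 in the phthalate libraries, and Pik3cg had 0 in all 6 libraries. GENCODE M21 places no exon of another gene over those of Pik3cd. The log2 ratio of Pik3cd between the groups was 0.092 (-0.10 to 0.29), and its values overlapped.

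Pdpk1 (chr17:24073680-24150924, minus strand) encodes the kinase that phosphorylates Akt in its activation loop. The counts of Pdpk1 were 21, 33 and 22 in the water libraries against 32, 29 and 25 in the phthalate libraries, or 77.9, 110 and 77.5 against 127, 98.3 and 90.9 CPM. Phthalate library 1 was the highest and water library 2 lay among the phthalate values. The log2 ratio was 0.25 (-0.21 to 0.72).

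Akt1 (chr12:112653821-112674884, minus strand) encodes an Akt kinase. It had 10, 5 and 15 counts in the water libraries against 5, 13 and 0 in the phthalate libraries, or 37.1, 16.6 and 52.9 against 19.8, 44.1 and 0 CPM. The 0 of phthalate library 3 allows up to 10.9 CPM (3 counts), and the other phthalate values lay within the water range. The log2 ratio was -0.66 (-1.59 to 0.23). It was -1.84 without phthalate library 2, -0.12 without phthalate library 3 and -0.24 without water library 3, so its size rested on single libraries.

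Akt2, which encodes a related kinase, overlapped with Akt1 in level. The means were 22.4 TPM for Akt1 and 12.9 TPM for Akt2, and Akt1 was above Akt2 in 3 of 6 libraries. Akt2 had 14, 12 and 10 counts in the water libraries against 9, 1 and 0 in the phthalate libraries. Its log2 ratio was -1.78 (-2.95 to -0.74), or -1.23 without phthalate library 3, and it did not pass the filter on low counts. The groups of Akt2 overlapped in CPM, where water library 3 (35.2) lay just below phthalate library 1 (35.7), and did not overlap after TMM scaling, which adjusts library totals for differences in RNA composition. Of the genes with mean counts from 5 to under 20, 10.3% had groups that did not overlap after that scaling.

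Phthalate library 3 had 0 counts of both genes. Sums over related genes, here and below, were chosen after their values were seen and have no background over other sums. Akt1 and Akt2 together had 24, 17 and 25 counts in the water libraries against 14, 14 and 0 in the phthalate libraries. In CPM these groups did not overlap, by a narrow margin between water library 2 (56.5) and phthalate library 1 (55.5), neither of which is phthalate library 3.

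Foxo3 (chr10:42181841-42276755, minus strand), the transcription factor whose exit from the nucleus releases follicles from dormancy, varied widely within both groups. The counts of Foxo3 were 79, 36 and 80 in the water libraries against 31, 62 and 107 in the phthalate libraries, or 293, 120 and 282 against 123, 210 and 389 CPM. Water library 2 and phthalate library 1 were low and phthalate library 3 was high, so each group spanned a wide range. The highest value was 2.45 times the lowest among the water libraries and 3.17 times among the phthalate libraries. The log2 ratio of the sums was 0.11 (-0.18 to 0.40). It was -0.21 without water library 2 and -0.45 without phthalate library 3, so its direction depended on which libraries were included.

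Foxo1, the related factor, overlapped with Foxo3 in level, with a mean of 75.3 TPM against 72.6. By median transcript length Foxo3 was the higher of the 2, so their order depended on the length used. Foxo1 counts were 83, 56 and 83 in the water libraries against 129, 121 and 36 in the phthalate libraries, with a log2 ratio of 0.44 (0.18 to 0.70) and groups that overlapped. Without phthalate library 3 the log2 ratio of Foxo1 was 0.79, past 1.5-fold. Phthalate library 1 was highest for Foxo1 and low for Foxo3, and phthalate library 3 was lowest for Foxo1 and highest for Foxo3. The share of Foxo3 in the FOXO transcripts, per length, was 53.0%, 42.6% and 54.9% in the water libraries against 23.3%, 39.3% and 79.0% in the phthalate libraries. Summed counts of the FOXO genes were 164, 94 and 163 against 160, 183 and 143, and the groups overlapped. An antisense gene, Gm20402, overlaps exons of Foxo1 and was not analysed here.

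Tsc1 and Tsc2 encode the complex that holds back mTOR. Tsc1 (chr2:28641228-28691167, plus strand) had 24, 25 and 15 counts in the water libraries against 14, 19 and 13 in the phthalate libraries, or 89.1, 83.1 and 52.9 against 55.5, 64.4 and 47.3 CPM. Water libraries 1 and 2 were above every phthalate library and water library 3 was among them. The log2 ratio was -0.40 (-0.98 to 0.16).

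Tsc2 (chr17:24595816-24632630, minus strand), which encodes the subunit that acts on the GTPase Rheb, had 5, 6 and 3 counts in the water libraries against 0, 3 and 4 in the phthalate libraries. The 0 of phthalate library 1 allows up to 11.9 CPM, which is above the value of water library 3 (10.6 CPM), so at this depth it could not be told from that library or from phthalate library 2 (10.2 CPM). The log2 ratio was -0.93 (-2.48 to 0.48). It was -0.38 without phthalate library 1, no longer past 1.5-fold, and -1.61 without phthalate library 3. Per length Tsc1 was 4.35 times as high as Tsc2 and above it in all 6 libraries, and on coding length alone that ratio was 8.32. Exons of Pkd1 overlap the end of Tsc2 on the opposite strand, and Pkd1 had 1 count over all libraries. Tbc1d7, the further subunit of the complex, had 6, 2 and 6 counts in the water libraries against 2, 0 and 0 in the phthalate libraries. Summed over Tsc1, Tsc2 and Tbc1d7 there were 35, 33 and 24 counts against 16, 22 and 17, and these groups did not overlap in CPM (84.6 or above with water, 74.6 or below with phthalate).

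Mtor (chr4:148448611-148557683, plus strand) encodes the kinase at the end of the pathway. It had 12, 21 and 24 counts in the water libraries against 17, 19 and 11 in the phthalate libraries, or 44.5, 69.8 and 84.6 against 67.4, 64.4 and 40.01 CPM. The lowest and next lowest libraries came from different groups, and the ranges largely coincided. The log2 ratio was -0.21 (-0.79 to 0.38), and without water library 3 it was 0.0043.

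Rptor (chr11:119602905-119899576, plus strand) encodes Raptor, the subunit that defines mTOR complex 1. It had 3, 1 and 0 counts in the water libraries against 3, 3 and 0 in the phthalate libraries, and both groups held a library at 0. These values are at or under the limit of detection in every library, and the log2 ratio of 0.66 (-1.42 to 2.93) carries no direction. Rictor, which defines mTOR complex 2, had 13, 19 and 18 counts against 24, 20 and 7, with a log2 ratio of 0.10 (-0.49 to 0.69), or 0.43 without phthalate library 3. Per length Rictor was above Rptor in all 6 libraries, and no ratio between the genes is given, as Rptor is at the limit of detection. An antisense gene, Rptoros, overlaps Rptor exons and had 0 counts.

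**Figure D2:**
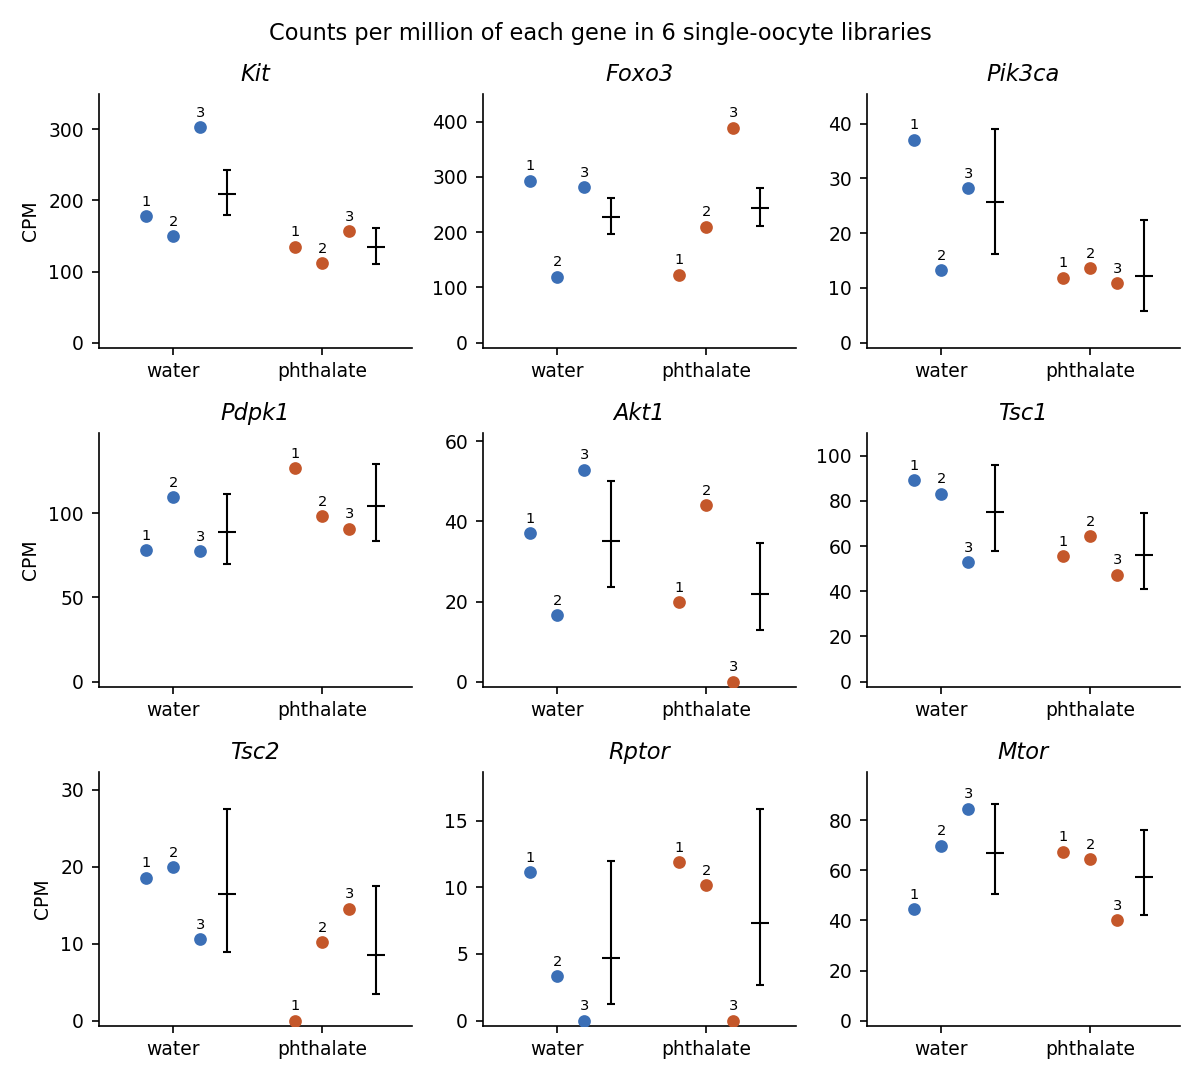
CPM (vertical axes, linear, each panel with its own scale) of the 9 genes in water (blue) and phthalate (orange) libraries, numbered by replicate. The black marks are the CPM of the summed counts of a group with the 95% exact Poisson interval, and in every panel at least 1 phthalate library lies within the range of the water libraries.

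The 9 genes were read against all genes of the table. The filter on low counts was passed by 4644 genes, among them 6 of the 9 (Kit, Foxo3, Pdpk1, Akt1, Tsc1 and Mtor). Pik3ca, Tsc2 and Rptor did not pass. Of the 6, Kit and Akt1 were lower by more than 1.5-fold in the phthalate group, and 0 were higher by more than 1.5-fold. Among the 4644 genes 8.14% were lower and 6.96% higher by that much. Kit belongs to the genes with a mean count from 20 to under 100, of which 4.84% were lower by more than 1.5-fold. For Akt1 and Pik3ca, with mean counts from 5 to under 20, the share was 18.3%. Tsc2 and Rptor belong to the genes with mean counts from 1 to under 5, of which 33.3% were lower and 30.5% higher by more than 1.5-fold. Differences past 1.5-fold were thus common at the abundance of Akt1, Pik3ca, Tsc2 and Rptor. Pik3ca was 2.09 times lower, and 6.13% of the genes in its range of mean counts were lower by more than 2-fold.

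The median log2 ratio of the 9 genes was -0.40, and that of the 6 that passed the filter was -0.31, against 0.0089 over all 4644. The 3 with a mean count of at least 20 (Kit, Foxo3 and Pdpk1) had a median of 0.11, with 2 of the 3 above 0. After TMM scaling the 3 phthalate values lay on one side of the 3 water values for 1 of the 9, Pik3ca, and on CPM without that scaling for none of the 9. Such separation was found for 10.1% of the genes that passed the filter and for 10.3% of those with a mean count from 5 to under 20. For Pik3ca it turned on water library 2 and phthalate library 2, with 4 counts each.

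**Figure D3:**
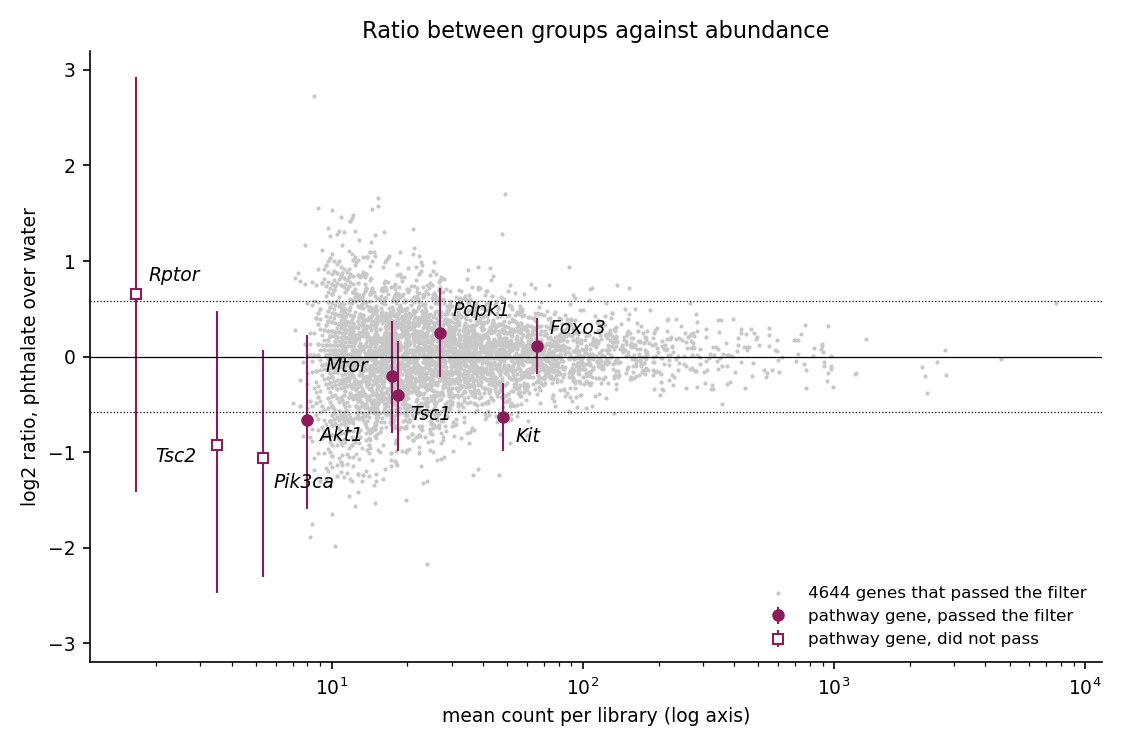
Log2 ratio of phthalate over water (vertical axis) against mean count per library (horizontal axis, log scale) for the 4644 genes that passed the filter (grey) and the 9 pathway genes (purple, open squares where the gene did not pass), with 95% exact counting intervals and dotted lines at 1.5-fold. The spread of the grey points widens toward low counts, and of the 9 intervals only that of Kit lies away from 0.

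The rest of the pathway was followed through 92 further genes grouped by role. Of these, 33 passed the filter, and their median log2 ratio was -0.083, with 13 above 0 and 20 below. Lower by more than 1.5-fold were Gab2, an adapter of receptor tyrosine kinases, and Depdc5, a subunit of the complex that turns mTOR complex 1 off when amino acids are short. Higher by more than 1.5-fold were Prkaa1, a catalytic subunit of the energy sensor AMPK, and Sesn3, a stress-induced inhibitor of mTOR complex 1. These 4 were picked out after their values were seen. Gab2 had 22, 27 and 16 counts against 12, 16 and 11, with a log2 ratio of -0.66 (-1.28 to -0.070). Depdc5 had 14, 11 and 14 against 8, 9 and 4, with -0.82 (-1.66 to -0.020). With counts halved to read pairs, both intervals included 0 (-1.55 to 0.19 for Gab2 and -2.06 to 0.33 for Depdc5). Gab2 and Depdc5 were the genes of the 33 whose groups did not overlap, where 10.1% of all genes that passed the filter did not. Depdc5 passed the filter only through the water libraries, where it is high, so nothing is read from its separation or from its place among the lower genes. Prkaa1 had 12, 17 and 15 counts against 28, 28 and 10, with 0.66 (0.085 to 1.24), or 0.96 without phthalate library 3, and the groups overlapped. With halved counts its interval was -0.16 to 1.51. Sesn3 had 5, 0 and 11 counts against 10, 6 and 11, with 0.83 (-0.12 to 1.82), an interval that included 0. The 2 lower and 2 higher of 33 stand beside the 8.14% and 6.96% of all genes.

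Over all 92 further genes, 6 had groups that did not overlap after TMM scaling, and all 6 were lower with phthalate. Besides Gab2 and Depdc5 these were Akt2, Pik3cb, Prkaa2 and Shc1, none of which passed the filter. For Pik3cb the separation turned on 2 counts in each of water libraries 1 and 3 and phthalate library 2, under the limit of 3 counts. Prkaa2, the alternative catalytic subunit of AMPK, went the opposite way to Prkaa1, with 15, 5 and 10 counts against 2, 4 and 4 and a log2 ratio of -1.51 (-2.71 to -0.44). With halved counts its interval was -3.33 to 0.020. Shc1, an adapter of receptor tyrosine kinases, had 4, 9 and 7 counts against 2, 2 and 0, with a log2 ratio of -2.25 (-4.26 to -0.67), or -1.71 without phthalate library 3. Of all genes with mean counts from 1 to under 5, the range of Shc1 and Pik3cb, 9.72% had groups that did not overlap. For the range of Akt2 and Prkaa2 the share was 10.3%. Over the genes that passed the filter, 239 were separated with phthalate higher and 232 with phthalate lower. Among further genes that did not pass, Grb2 and Pdcd4 went the other way, with groups that overlapped. Grb2 had 4, 0 and 4 counts against 5, 13 and 2, with 1.39 (0.15 to 2.79). Pdcd4 had 2, 8 and 10 against 18, 18 and 4, with 1.07 (0.26 to 1.92). With halved counts both intervals included 0 (-0.40 to 3.52 and -0.090 to 2.33).

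The most abundant genes of the other roles, named next, had counting intervals that included 0. Ptpn11, a phosphatase that relays signals from Kit, had a log2 ratio of -0.14 (-0.45 to 0.17). Rragc, a GTPase that brings mTOR complex 1 to the lysosome, was the most abundant amino acid sensing gene by count, with 131, 141 and 143 counts against 120, 122 and 133 and a log2 ratio of -0.074 (-0.28 to 0.13). The predicted gene 4930535I16Rik overlaps exons of Rragc and was not analysed here. Of the 10 amino acid sensing genes that passed the filter, 3 were above 0 and 7 below.

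Mapkap1, a subunit of mTOR complex 2, had a log2 ratio of -0.25 (-0.61 to 0.11). The 6 mTOR complex subunits other than Mtor and Rptor that passed the filter lay between -0.27 and 0.23, with 4 above 0 and 2 below. Mlst8, the subunit common to both complexes, had 0 counts in all 6 libraries. Rheb, the GTPase that activates mTOR, had 12, 16 and 25 counts against 17, 8 and 13, with a log2 ratio of -0.41 (-1.05 to 0.22).

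Ddit4, a stress-induced activator of the Tsc complex, had 35, 33 and 19 counts against 25, 34 and 22, with a log2 ratio of -0.031 (-0.49 to 0.42). Eif4b, a translation factor that S6 kinase phosphorylates downstream of mTOR, had 79, 94 and 62 counts against 90, 90 and 71, with 0.17 (-0.10 to 0.43). None of the 7 genes in the role of lipid and protein phosphatases, which does not hold Ptpn11, passed the filter. Phlpp2, the most abundant of them by count, had 14 counts over the water libraries and 7 over the phthalate libraries.

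**Figure D4:**
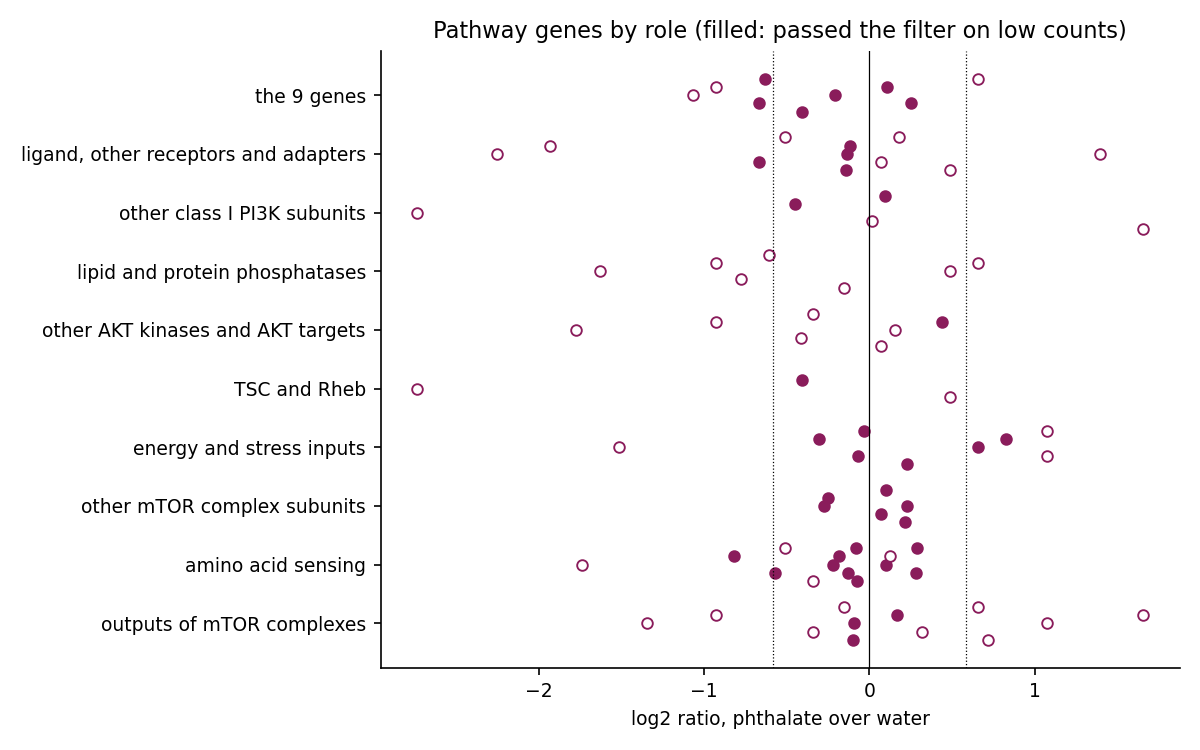
Log2 ratio of phthalate over water (horizontal axis) for the 9 genes and the further pathway genes by role (rows), filled where the gene passed the filter on low counts, with dotted lines at 1.5-fold. Points are shifted vertically within a row only to separate them, genes at or under 3 counts in both groups have no point, and the filled points cluster around 0 in most rows.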

How the data were processed

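Single oocytes were profiled with Smart-seq3, a single-cell method with oligo(dT) priming, template switching and PCR, and sequenced as read pairs of 150 bp, per the labels' protocols. The authors deposited 1 table of raw whole-number counts for each gene symbol, with 92 ERCC spike-in rows, which stayed out of all totals (292 to 753 counts per library). Per the submitters' processing notes the build was mm10 and the tools cutadapt, Trimmomatic, HISAT2 and DESeq2; versions, the counting tool, annotation, strand and the handling of molecular identifiers are not given in the sources used here. Counting without strand would mix overlapping genes.

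From the counts, CPM, TPM (lengths from GENCODE M21, matched for 24366 of 25239 symbols) and group ratios were computed. A ratio divides summed counts by group totals scaled with TMM factors (edgeR 4.0.16, R 4.3.3). A sum of 0 was set to 3 counts, and no ratio was formed where both groups had 3 or fewer. Its interval is exact (Clopper-Pearson, from the 2 sums) (scipy 1.17.1). PCR copies and mates counted separately would make the true error wider. The filter was edgeR's filterByExpr (minimum count 10, minimum total 15). No test was run, since each group is 1 sample. Pairs of libraries within a group differed beyond counting error, with chi-square per degree of freedom from 1.17 to 2.31 on halved counts, so no pair was taken as copies of 1 library. Counts were still summed within a group for the ratios, whose intervals leave out that spread between libraries. The ratio computation was tested on simulated data.

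The 9 genes and the lists were chosen with earlier results of these data known. Named genes are the 9, the most abundant gene of each role, those past 1.5-fold with a mean count of at least 20 (0 of the further genes), the 3 closest to Kit, and Kitl. Gab2, Depdc5, Prkaa1, Prkaa2, Sesn3, Shc1, Grb2, Pdcd4, Akt2, Pik3cb, Pik3cg, Tbc1d7, Igf1r, Insr, Rictor, Mlst8, Gdf9, Foxo4 and Foxo6 fall outside this rule and were chosen with their values seen. The Akt motif count planned for the proteins was not run, and the search of 3′ ends was added after the data were seen. Results for some genes of the lists are not reported here.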

Additional observations from a re-analysis of the deposited data

How the results depend on the processing

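Scaling, filter and the way groups were averaged moved no ratio of the 9 genes outside its counting interval. Of 99 alternative values, 93 stayed within it with the same sign, and the other 6 came from leaving out 1 library. Leaving out 1 library gave log2 ratios from -0.82 to -0.26 for Kit, from -1.84 to -0.12 for Akt1, from -0.45 to 0.42 for Foxo3, from -0.42 to 0.0043 for Mtor, from -1.61 to -0.38 for Tsc2, from 0.079 to 2.10 for Rptor, from -1.39 to -0.75 for Pik3ca, from -0.60 to -0.28 for Tsc1 and from 0.13 to 0.46 for Pdpk1. The sign of Foxo3 changed without water library 2 (-0.21) and without phthalate library 3 (-0.45), and that of Mtor without water library 3 (0.0043). The median of the further pathway genes ranged from -0.18 to 0.031 and changed sign without water library 3 (0.031). The median of the 9 genes stayed between -0.47 and -0.24 over all alternatives run. The cause was not tested.

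With 1 library left out, the 9 genes held 2 to 4 lower and 0 to 1 higher by more than 1.5-fold, and 1 to 3 with groups that did not overlap. Over all genes that passed the filter in those settings, 9.40% to 11.9% were lower, 8.52% to 10.5% higher and 18.3% to 24.2% without overlap. The further genes that passed the filter held 2 to 6 lower and 1 to 4 higher. With library totals in place of TMM, 0 of the 9 had groups that did not overlap. At 2-fold, 1 of the 9 was lower and 0 higher, and of the further genes 0 were lower and 0 higher, beside 1.64% lower and 1.14% higher over all genes that passed the filter. The 1 was Pik3ca, which did not pass, and of all genes with mean counts from 5 to under 20, as Pik3ca has, 6.13% were lower by 2-fold. At the smaller alternative threshold (0.32 on the log2 scale) 5 of the 9 (3 of the 6 that passed the filter) were lower and 1 (0 of the 6) higher, and of the further genes 5 were lower and 3 higher, beside 18.5% and 18.9% over all genes that passed the filter. Without a filter 16 were lower and 11 higher, since genes with few counts then entered, beside 19.1% and 17.0% of all 10319 genes with a ratio. The shares at both folds and with 1 library left out are over genes that passed the filter, while the 9 include 3 that did not. The ratios of Akt2, Foxo1, Rictor, Prkaa1 and Shc1 without phthalate library 3 were computed after seeing the data.

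With counts halved to read pairs, the interval of Kit was -1.14 to -0.13. TPM of Foxo3, Pdpk1, Mtor and Tsc1 moved by more than 1 SD with another transcript length. The replicate numbers only name the libraries. No paired analysis was possible because the values come from no test and the labels name no animal, culture or day that ties libraries of the same number together. With mean counts from 1.67 (Rptor) to 65.8 (Foxo3), depth limits the comparison most for Rptor, Tsc2, Pik3ca and Akt1.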
